A study of Homo sapiens with 24 samples.

Results

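PPM1D, PLK3, ZMAT3 and GADD45A are 4 genes known as transcriptional targets of p53. They were followed here across a time course of treatment with a kinase degrader in MOLT4 cells. They were picked by gene symbol from the 9822 genes of the deposited tables, because earlier results on these libraries had shown them moving with treatment. Their differences between treated and solvent cells are therefore given as a description, without a test. Each of the 4 symbols was found once, and all 4 genes passed the filter on low counts, which removed 0 genes.

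MOLT4 is an established line from a human T-cell leukaemia. The cells received SK-3-91, a degrader directed against many kinases, or the solvent DMSO, and were harvested after 1, 4 or 8 h. Each of the 6 groups (DMSO and SK-3-91 at each of the 3 times) held 4 RNA-seq libraries of this single line, and the labels name no other agent or engineered allele in any group. The labels state no dose. They also do not say whether replicates came from different cultures, and the p-values below therefore reflect the spread among these libraries alone, which may be technical.

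The protein p53 is a stress-activated transcription factor held low by the ubiquitin ligase MDM2, itself a p53 target. PPM1D (also WIP1) is a phosphatase that removes activating phosphates from p53, from the damage kinases ATM and CHEK1 and from the stress kinase p38, and so closes a feedback loop. PLK3 is a polo-like kinase that responds to stress and is also induced rapidly by serum and growth factors. ZMAT3 is a zinc-finger protein that binds RNA and acts on splicing and transcript stability. GADD45A is a small stress-induced protein that binds PCNA, the CDK1 kinase and the p38-pathway kinase MAP3K4. All 4 genes can also be driven by inputs other than p53.

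Depth ranged from 6.863 to 14.626 megareads of counted reads per library and was lower in treated cells. Group means were 14.1, 14.4 and 14.2 megareads in DMSO and 13.6, 10.8 and 8.3 megareads in SK-3-91 at 1, 4 and 8 h. Levels are given as CPM, counts per megaread of library total, scaled by edgeR's TMM factors, which assume that most genes keep their share. Why depth was lower in treated cells was not tested, and counted reads are not taken here as a measure of RNA amount. In such bulk samples fewer cells and less RNA per cell cannot be told apart. Without those factors the median log2 fold change of all genes was -0.01, -0.35 and -0.54 at 1, 4 and 8 h, against 0.01, -0.05 and -0.11 with them. Of 14 T-lineage markers 13 were measured, summing to between 2749 and 3145 CPM in DMSO libraries and between 2980 and 4376 CPM in treated ones. CD3E makes up much of that sum, with a mean of 953 CPM in DMSO and 1903 CPM in SK-3-91 at 4 h. Of the 13 markers 6 were called higher and 3 lower at 1 h, 6 and 7 at 4 h, and 4 and 7 at 8 h. Their median log2 fold changes were 0.09, -0.58 and -0.38. Beside these, 24.9% of all genes were called higher and 29.4% lower at 1 h. The shares were 42% and 45.9% at 4 h, and 41.3% and 48.1% at 8 h. The T-cell adhesion gene CD2 stood at 103, 12.2 and 7.05 CPM after 1, 4 and 8 h of SK-3-91. The recombinase gene RAG2 stood at 2.75 CPM in SK-3-91 against 24.5 CPM in DMSO at 8 h. RAG2 is uncertain, because opposite-strand exons overlap 26.0% of its exon length. Both genes were named after their values were seen. Of 5 B-cell markers only CD79A was measured, and its libraries stood at 6.35 to 10.4 CPM in DMSO, 9.61 to 10.7 at 1 h of SK-3-91, 16.4 to 18.6 at 4 h and 23.3 to 30.5 at 8 h. Of 5 fibroblast or endothelial markers only PECAM1 was measured, at 32.9 to 43.7 CPM in DMSO and at 15.7 to 20.8 CPM after 8 h of SK-3-91. The other B-cell, fibroblast and endothelial markers, the 6 myeloid markers and the 4 epithelial markers were not analysed here. The part of other cells in the results below was not tested.

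Promoter sequences were matched by symbol in RefSeq's GRCh38.p14 table for 3 of the 4 genes, and are shown because PPM1D, PLK3 and ZMAT3 followed 3 different courses. Each run holds the 250 bases before the transcript start, 5′ to 3′ on the gene's strand, and capitals mark TGACGTCA, CCAAT and GGGCGG on either strand. The PPM1D window lies at chr17:60599943-60600192 on the plus strand, the PLK3 window at chr1:44800127-44800376 on the plus strand and the ZMAT3 window at chr3:179071810-179072059 on the minus strand.
PPM1D: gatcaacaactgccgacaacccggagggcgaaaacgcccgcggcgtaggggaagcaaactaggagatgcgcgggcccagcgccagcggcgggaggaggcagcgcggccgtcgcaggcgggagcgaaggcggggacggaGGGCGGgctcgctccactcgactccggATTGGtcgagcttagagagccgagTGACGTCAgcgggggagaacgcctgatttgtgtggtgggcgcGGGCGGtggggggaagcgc
PLK3: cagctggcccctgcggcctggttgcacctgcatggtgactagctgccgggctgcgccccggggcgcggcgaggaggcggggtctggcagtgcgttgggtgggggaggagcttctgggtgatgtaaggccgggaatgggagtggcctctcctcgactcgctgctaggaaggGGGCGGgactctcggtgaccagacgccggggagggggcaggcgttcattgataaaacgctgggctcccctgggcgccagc
ZMAT3: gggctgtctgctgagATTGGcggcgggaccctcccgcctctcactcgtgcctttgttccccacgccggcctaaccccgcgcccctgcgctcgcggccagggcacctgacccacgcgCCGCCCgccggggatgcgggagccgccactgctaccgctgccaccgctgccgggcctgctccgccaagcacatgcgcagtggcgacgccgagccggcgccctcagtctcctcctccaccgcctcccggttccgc
These windows were 70.4%, 70.0% and 75.2% G or C, against a median of 58.0% over all 35116 windows of the table. The PPM1D window holds TGACGTCA, the palindromic cyclic AMP response element, starting 61 bases before the start, and 1.65% of all windows hold it on either strand. GGGCGG, the GC box, is present in all 3 windows and in 42.6% of all. CCAAT is in the PPM1D and ZMAT3 windows, read as ATTGG, and in 11240 of all 35116 windows. TGACG, which lies on both strands within TGACGTCA, is in 21.2% of all. CACGTG (in 6.34% of all windows), TATAAA (10.7%) and the p53 half-site (5.57%) were searched on both strands and their letters are not in these 3 windows. A second ZMAT3 window of the table, 36.0% G or C, held none of these motifs. The half-site was the 10-base pattern RRRCWWGYYY (R is A or G, Y is C or T, W is A or T), matched exactly. Bases after the transcript start were not searched, so sites there could not be found. These matches are descriptions of the letters and do not show binding.

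PPM1D, the feedback phosphatase, reversed direction within the time course. At 1 h its 4 DMSO libraries stood at 81.3, 69.0, 67.7 and 66.4 CPM and its 4 treated libraries at 23.3, 24.4, 23.1 and 25.8 CPM. Every treated library was below every DMSO library, and the log2 fold change was -1.56 ± 0.06 (SE, n = 4 per group), a 2.94-fold lower level. At that time 59 of the 9822 genes had a lower log2 fold change, a rank that is not independent of how the gene was chosen. At 4 h DMSO libraries stood at 66.0, 71.0, 69.7 and 68.2 CPM and treated libraries at 149, 140, 147 and 152 CPM, now all above the solvent. At 8 h they stood at 63.9, 67.0, 67.9 and 61.1 CPM in DMSO and at 301, 269, 297 and 269 CPM in SK-3-91. The log2 fold change was 1.10 ± 0.05 at 4 h and 2.13 ± 0.05 at 8 h, or 2.14-fold and 4.37-fold higher. Within the treated arm the mean rose from 24.2 ± 1.23 to 147 ± 5.01 and 284 ± 17.5 CPM (SD, n = 4), an 11.7-fold span. The highest of the 6 groups was SK-3-91 at 8 h, followed by SK-3-91 at 4 h, by the 3 DMSO groups, whose libraries overlapped in this order, and by SK-3-91 at 1 h. Even as raw reads, from libraries of smaller total, the gene went from 337 to 375 counts at 1 h of treatment to 1610 to 2142 counts at 8 h.

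PLK3, the stress-responsive kinase, was low early and came back without passing the solvent level. At 1 h its DMSO libraries held 14.0, 13.1, 14.7 and 13.8 CPM and its treated libraries 6.22, 4.77, 6.28 and 4.26 CPM. The 2 groups did not overlap, and the log2 fold change was -1.37 ± 0.12 (SE, n = 4 per group), 2.58-fold lower. At 4 h the DMSO libraries were at 15.96, 14.8, 16.8 and 17.9 CPM and the treated ones at 5.75, 7.57, 8.13 and 6.85 CPM, again apart, with a log2 fold change of -1.21 ± 0.12. At 8 h DMSO libraries spread over 15.4, 12.8, 11.3 and 15.98 CPM and treated libraries over 10.5, 10.5, 11.99 and 13.3 CPM. The groups overlapped at that time, and the log2 fold change was -0.27 ± 0.12, or -0.70 without scaling factors. In the order of levels, treated libraries at 1 h and 4 h overlapped at the bottom, SK-3-91 at 8 h lay above both, and it overlapped DMSO at 8 h. Few reads stand behind these values: treated libraries at 4 h had 55 to 78 counts and those at 8 h 65 to 92 counts.

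ZMAT3, the RNA-binding protein gene, differed at 1 h by less than the spread of its libraries and had the highest fold of the 4 against DMSO of the same time at 4 and 8 h. Within the treated arm its 5.39-fold span from 1 to 8 h was smaller than the 11.7-fold span of PPM1D. At 1 h DMSO libraries stood at 41.2, 42.0, 44.0 and 43.6 CPM and treated libraries at 40.3, 38.6, 43.2 and 43.2 CPM. These ranges overlapped, with a log2 fold change of -0.05 ± 0.06 (SE, n = 4 per group). At 4 h the DMSO libraries stood at 22.0, 22.0, 18.6 and 19.96 CPM and the treated ones at 80.5, 80.9, 79.9 and 87.0 CPM. At 8 h the values were 18.5, 19.7, 18.2 and 21.3 CPM in DMSO and 233, 219, 197 and 243 CPM in SK-3-91. All treated libraries lay above all DMSO libraries at both times, by a log2 fold change of 1.99 ± 0.06 at 4 h and 3.52 ± 0.06 at 8 h. A higher log2 fold change was seen in 50 and 19 genes at 4 and 8 h, ranks that are not independent of how the gene was chosen. The 8 h ratio of 11.5-fold rests on both arms, since the treated mean went from 41.3 to 82.1 and 223 CPM while the DMSO mean went from 42.7 to 20.7 and 19.4 CPM. Set against DMSO at 1 h, the treated means were 1.92-fold higher at 4 h and 5.22-fold higher at 8 h.

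GADD45A, the growth-arrest gene, followed the course of PPM1D on a smaller scale. At 1 h DMSO libraries held 10.4, 11.3, 11.1 and 9.82 CPM and treated libraries 6.78, 7.42, 7.30 and 7.91 CPM, all lower. The log2 fold change was -0.53 ± 0.10 (SE, n = 4 per group), 1.45-fold lower. At 4 h DMSO libraries stood at 8.64, 10.96, 10.0 and 10.5 CPM and treated libraries at 13.0, 12.2, 15.3 and 12.3 CPM. The treated libraries were all above, but the gap was small and depended on the scaling: the log2 fold change was 0.40 ± 0.10 with TMM factors and 0.10 without. At 8 h DMSO libraries stood at 9.62, 9.51, 11.97 and 9.60 CPM and treated libraries at 34.4, 33.2, 34.3 and 31.5 CPM, a log2 fold change of 1.71 ± 0.09 or 3.28-fold. GADD45A was the least covered of the 4 in DMSO, at 138 to 176 counts per library, against 186 to 245 counts in the shallower treated libraries at 8 h.

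**Figure D1:**
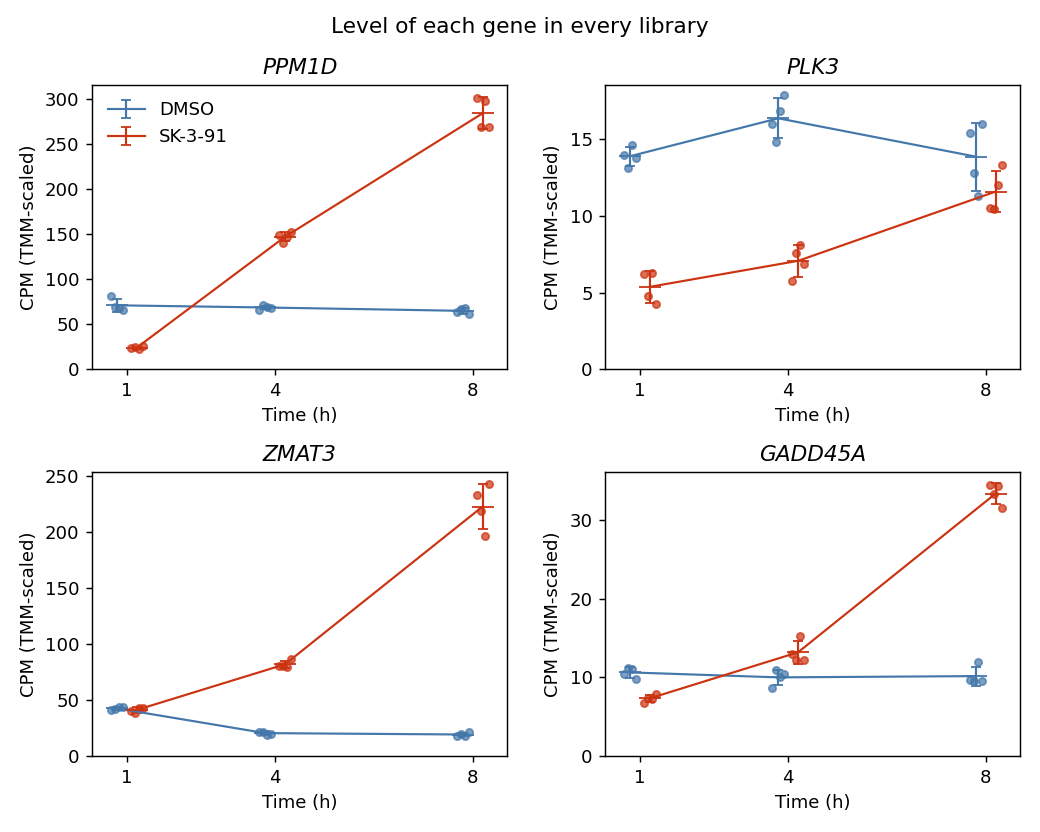
CPM (TMM-scaled, linear axes from 0) of each gene against time in h; points are libraries, horizontal marks and bars the mean ± SD of 4 libraries, blue DMSO and red SK-3-91. The treated line crosses the DMSO line between 1 and 4 h for PPM1D and GADD45A, starts level with it for ZMAT3 (41.3 against 42.7 CPM at 1 h) and stays under it for PLK3.

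The 3 comparisons with DMSO use separate libraries at each time, so the courses above are not linked by a shared control. At 1 h 51.0% of the 9822 genes had treated and DMSO libraries that did not overlap, and 3 of the 4 genes did. The share was 83.3% at 4 h, when all 4 genes were apart, and 83.9% at 8 h, when 3 were. Nothing is read from those counts, since the genes were chosen on these contrasts. Without factors the log2 fold changes at 1 h were -1.58 for PPM1D, -1.39 for PLK3, -0.07 for ZMAT3 and -0.56 for GADD45A. At 8 h they were 1.69, -0.70, 3.09 and 1.28 in the same order, so no direction turned.

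**Figure D2:**
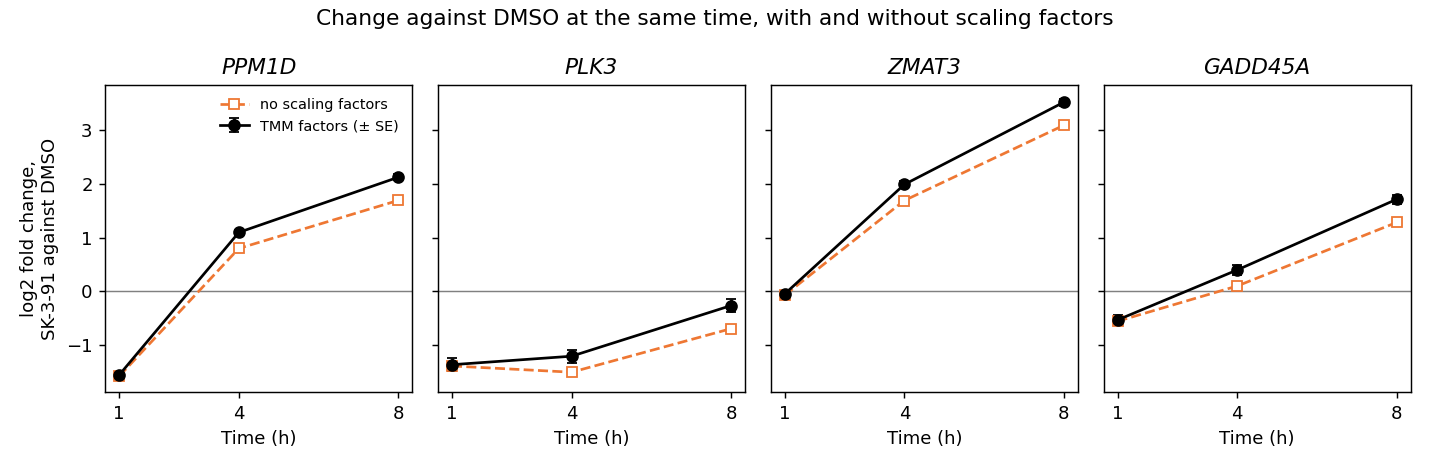
Log2 fold change of SK-3-91 against DMSO at the same time, by time in h, for each gene; black circles use TMM factors with SE bars (n = 4 per group) and orange squares use library totals alone. Every gene keeps its side of 0 under both; ZMAT3 at 1 h lies at -0.05 and -0.07, and GADD45A at 4 h at 0.40 and 0.10.

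Levels of different genes can be compared only per length, for which RPKM (reads per kilobase of deposited gene width per megaread, TMM-scaled) was computed. In DMSO at 1 h PPM1D was highest at 14.1 ± 1.37 RPKM, then GADD45A at 7.29 ± 0.45, PLK3 at 5.23 ± 0.23 and ZMAT3 at 4.62 ± 0.14 (SD, n = 4). ZMAT3, whose deposited width of 9256 bases is the longest of the 4, was thus lowest per length although its CPM exceeded those of PLK3 and GADD45A. After 8 h of SK-3-91 the levels were 56.5 ± 3.48 RPKM for PPM1D, 24.1 ± 2.15 for ZMAT3, 22.8 ± 0.94 for GADD45A and 4.36 ± 0.51 for PLK3. ZMAT3 had moved from the lowest place to a level whose spread overlapped that of GADD45A. Averaged over DMSO libraries the genes sat at the 53.8th (PPM1D), 34.5th (GADD45A), 28.4th (PLK3) and 16.3th (ZMAT3) percentiles of RPKM among the genes measured.

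Change over time in solvent alone is a contrast that the choice of genes did not use directly. Its libraries also served as the controls above, however. The p-values and ranks of the 4 genes in solvent are therefore not independent of that choice, and are given as a description. For ZMAT3 a low level in DMSO at 4 h raises the ratio of treated to DMSO cells and also enlarges the fall in solvent. ZMAT3 fell from 42.7 ± 1.32 CPM at 1 h to 20.7 ± 1.65 CPM at 4 h of DMSO (SD, n = 4), with all 4 later libraries below all 4 earlier ones. The log2 fold change was -1.05 ± 0.07 (SE; edgeR quasi-likelihood test, Benjamini-Hochberg adjusted p = 5.9e-16 over 9822 genes). Of all genes 35.1% were called in this comparison, 16% as higher and 19.1% as lower, 18.3% had all later libraries below, and 10 genes had a lower log2 fold change than ZMAT3. From 4 to 8 h of DMSO, a comparison that shares the 4 h libraries and called 30.7% of genes, ZMAT3 changed by -0.09 ± 0.07 (edgeR adjusted p = 0.39).

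For the other 3 genes the changes in solvent were 0.24 or less in size on the log2 scale. PPM1D changed by -0.05 ± 0.05 from 1 to 4 h and by -0.08 ± 0.05 from 4 to 8 h on the log2 scale (edgeR adjusted p = 0.51 and 0.27). GADD45A changed by -0.09 ± 0.09 and 0.02 ± 0.09 (edgeR adjusted p = 0.49 and 0.89). PLK3 rose by 0.24 ± 0.10 from 1 to 4 h at the edge of the threshold (edgeR adjusted p = 0.049), with all 4 later libraries above, as in 16.3% of all genes. That call was lost with upper-quartile factors (adjusted p = 0.057) and when any of 6 of the 8 libraries was left out, with adjusted p up to 0.15. Its change from 4 to 8 h, -0.24 ± 0.10, missed the threshold (edgeR adjusted p = 0.053).

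**Figure D3:**
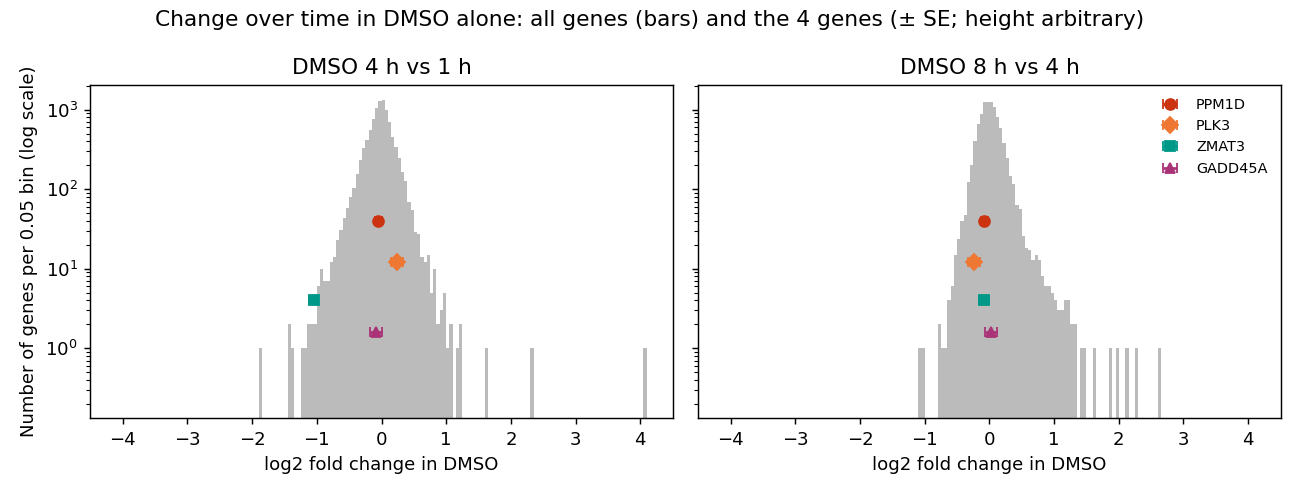
Histogram (log count axis, bins of 0.05) of the log2 fold change of all 9822 genes in DMSO, 4 h against 1 h on the left and 8 h against 4 h on the right; coloured marks show the 4 genes with SE bars at arbitrary heights. ZMAT3 lies in the far lower tail on the left, at -1.05, and near the middle on the right, at -0.09.

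Over the 24 libraries PPM1D and GADD45A had the most similar profiles of log2 CPM among the 4 (Pearson r = 0.91), followed by ZMAT3 with GADD45A (0.83) and ZMAT3 with PPM1D (0.72). PLK3 had r = 0.27 with PPM1D, 0.18 with GADD45A and -0.29 with ZMAT3. These values describe 6 groups of 4 libraries that share treatment, time and depth. The 3 genes most like each member were sought among 9184 genes with a mean of at least 5 CPM. PPM1D was followed most closely by C16orf72 (r = 0.995), which shares 53.8% of its 32-base words with other genes and is uncertain. Next came BAG4, a chaperone regulator gene, and USPL1, a SUMO-specific protease gene, with r = 0.990 each. BAG4 had log2 fold changes of -0.90, 0.94 and 1.69 at 1, 4 and 8 h, the same order of signs as PPM1D. PLK3 was nearest to the thiamine transporter gene SLC19A2 (r = 0.947), which had -1.08, -0.79 and -0.26, then to WIPF2 (0.928) and BTN2A1 (0.926). The WIPF2 change of -0.05 at 8 h turned to 0.04 with RLE factors. ZMAT3 was nearest to LENG8 (0.982), PNISR (0.980) and BRD9 (0.979). LENG8 went from 146 CPM in DMSO to 715 CPM in SK-3-91 at 8 h, and PNISR from 110 to 633 CPM. GADD45A was nearest to TAB2 (0.987), an adaptor of TAK1 signalling, to the palmitoyltransferase gene ZDHHC7 (0.984) and to MTF2 (0.982). TAB2 had log2 fold changes of -0.49, 0.64 and 1.92, close to the -0.53, 0.40 and 1.71 of GADD45A.

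Among regulators of the pathway, MDM2 transcripts did not follow PPM1D. MDM2 fell at all 3 times, by 0.60, 1.01 and 0.24 on the log2 scale, with adjusted p of 9.7e-16, 3.1e-23 and 5.6e-06, and 12.5% of its 32-base words also occur in other genes. MDM4, the MDM2-related p53 inhibitor, was not called at 1 h (-0.01 ± 0.06) and rose by 0.40 ± 0.06 at 4 h and 0.36 ± 0.06 at 8 h. Both calls were lost without scaling factors, at 0.10 (edgeR adjusted p = 0.14) and -0.08 (0.28). Among 27 measured of 28 listed p53 regulators, 5 rose and 8 fell at 1 h, 11 and 11 at 4 h, and 13 and 12 at 8 h. Over all genes the shares called higher and lower were 24.9% and 29.4% at 1 h, 42% and 45.9% at 4 h, and 41.3% and 48.1% at 8 h, and the counts of this and the following lists are to be read against them. The deacetylase gene SIRT1 fell from 49.1 to 17.1 CPM at 1 h (-1.52 ± 0.07) and the ubiquitin ligase gene COP1 from 48.6 to 14.5 CPM at 4 h (-1.74 ± 0.07). At 8 h the acetyltransferase genes KAT5 and KAT8 changed by -2.23 and -1.83, KAT5 being uncertain because 38.6% of its exon length is overlapped by an opposite-strand exon. The ribosomal protein genes RPL11 and RPL5, whose proteins bind MDM2, changed by 1.27 and 1.13 at 4 h, and RCHY1, a p53 ubiquitin ligase and listed target, rose by 1.51 ± 0.05 at 8 h.

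The other p53 targets that could be measured did not move as a block. The list was drawn up without the 4 genes above and held 126 symbols, of which 82 were measured. CDKN1A, BBC3, FAS and GDF15 are not among those 82. The lowest mean count of a gene in the deposited tables was 32.04, and shares over all genes refer to that set alone. Listed targets missing from the deposited tables could not be followed, and why they were missing was not tested. The counts below therefore hold for the 82 alone. At 1 h 13 rose and 28 fell, a median log2 fold change of -0.05 against 0.01 for all genes, where 24.9% of all genes were called higher and 29.4% lower. At 4 h 27 rose and 46 fell (median -0.27, all genes -0.05, 42.0% and 45.9% called), and at 8 h 31 rose and 39 fell (median -0.12, all genes -0.11, 41.3% and 48.1% called). Without scaling factors 16 rose and 54 fell at 4 h, and 19 rose and 53 fell at 8 h. Over all genes the split without factors was 1988 higher and 3079 lower at 1 h, 2871 and 5752 at 4 h, and 2778 and 6145 at 8 h, against 2448 and 2889, 4121 and 4511, and 4060 and 4723 with TMM. RLE factors gave 3249 higher and 2573 lower at 1 h. Nothing particular to the list is read from these counts.

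Among the listed targets the largest early falls were in the growth-arrest gene BTG2, from 16.1 to 4.75 CPM (-1.76 ± 0.11, edgeR adjusted p = 9.8e-17), and in E2F7, a repressor of the cell cycle, from 161 to 54.1 CPM (-1.58 ± 0.06). The zinc-finger gene ZNF79 fell by 1.29 on the log2 scale. The largest early rises were small: ZNF385A by 0.29, FDXR by 0.24, CDIP1 by 0.21 and ALDH4A1 by 0.20, the last sharing 38.9% of its words with other genes. At 4 h ORAI3, a calcium channel gene that shares 50.6% of its words, rose by 1.57, SUSD6 by 0.91 and TSPYL2 by 0.89. ZNF561 (-2.93), the signalling adaptor gene TRAF4 (-2.44), the decapping gene DCP1B (-2.38) and ZNF79 (-2.36) fell most.

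At 8 h the stress sensor gene SESN1 had the largest rise among the listed targets. It went from 27.0 to 217 CPM (3.01 ± 0.06, edgeR adjusted p = 1.8e-35) after -0.23 at 1 h and 0.40 at 4 h, the latter 0.10 and not called without scaling factors (adjusted p = 0.17). ORAI3 (2.02), SUSD6 (2.02) and the cyclin K gene CCNK (1.96) rose next, CCNK being uncertain because opposite-strand exons overlap 59.5% of it. NINJ1 fell from 8.31 to 0.686 CPM (-3.60 ± 0.23), TRAF4 changed by -2.98, ZNF561 by -2.41 and MR1, an antigen-presenting molecule gene, by -2.16. By function, 7 of 10 measured feedback and signalling targets were called higher and 2 lower at 8 h (median log2 fold change 0.37). These 10 had 1 higher and 3 lower at 1 h and 3 higher and 6 lower at 4 h. At 8 h apoptosis targets were called higher in 7 and lower in 7 of 15, and DNA repair targets in 3 and 7 of 12. Cell cycle arrest targets were called higher in 2 and lower in 2 of 5. Metabolism and autophagy targets were so called in 2 and 5 of 13, and the remaining targets in 10 and 16 of 27. Over all genes 24.9% were called higher and 29.4% lower at 1 h, 42% and 45.9% at 4 h, and 41.3% and 48.1% at 8 h. These counts by function used TMM factors alone, and nothing particular to a function is read from them.

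Called lower at 1 h and higher at both later times were 5 of the 82 targets (6.10%) and 5.75% of all genes: SESN1, the apoptosis gene PMAIP1, the ubiquitin ligase subunit gene FBXW7, PLCL2 and BLOC1S2, named after their values were seen except SESN1. FBXW7 had log2 fold changes of -0.64, 0.19 and 1.08, PLCL2 of -0.40, 0.55 and 1.58 and PMAIP1 of -0.37, 0.58 and 0.55, smaller at 8 h than the 2.13 of PPM1D. The pattern depends on the scaling: without factors the 4 h call was lost for SESN1, for BLOC1S2 (0.10, edgeR adjusted p = 0.095) and for FBXW7, which turned to -0.11 (0.053). Not called at 1 h and higher at both later times, as ZMAT3 stood by its values, were 12 targets (14.6%) against 12.8% of all genes. Called lower at 1 and 4 h and not called at 8 h, the course closest to that of PLK3, were 7 targets (8.54%) against 2.05% of all genes. These were BTG2, E2F7, ACER2, DRAM1, FANCC, PTPRE and TIGAR, all but the first 2 named after their values were seen. Without scaling factors all of them except DRAM1 were called lower at 8 h as well.

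**Figure D4:**
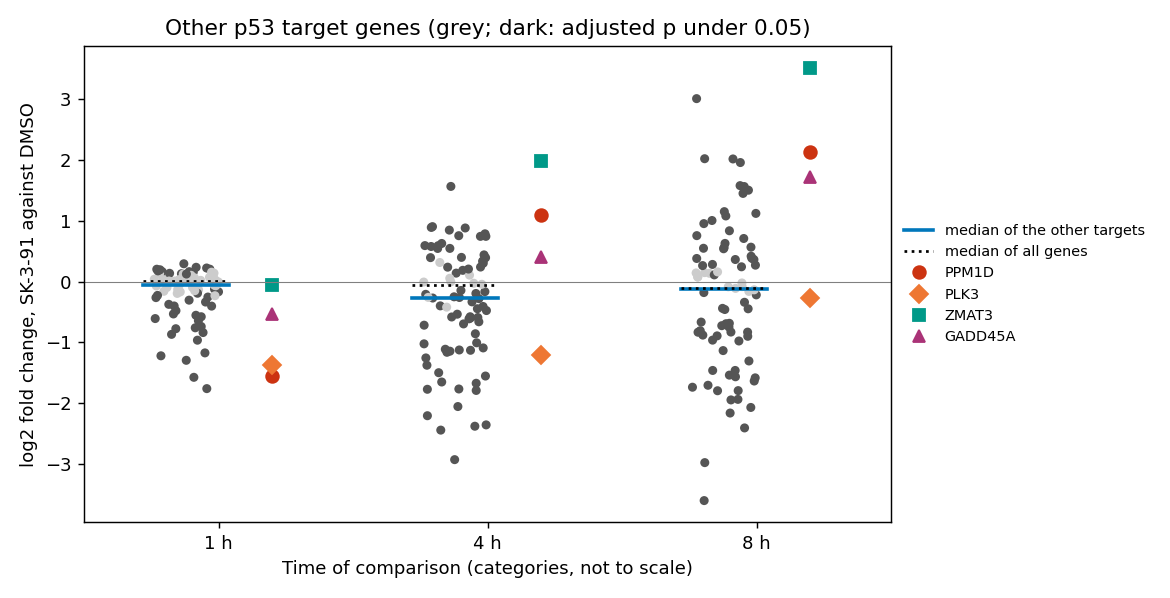
Log2 fold change of SK-3-91 against DMSO at 1, 4 and 8 h for 82 other p53 targets (grey points spread sideways at random, dark where the edgeR adjusted p is under 0.05) beside the 4 genes (coloured). The blue median of the targets and the dotted median of all genes stand at -0.05 and 0.01 at 1 h, -0.27 and -0.05 at 4 h, and -0.12 and -0.11 at 8 h, when the 4 genes range from -0.27 for PLK3 to 3.52 for ZMAT3.

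Relatives of the 4 genes moved in their own ways. PLK4, the kinase of centriole duplication, fell at all 3 times (-0.39, -1.48 and -1.83), and the mitotic kinase gene PLK1 fell at 4 h (-0.74 ± 0.04), when its DMSO level had risen by 0.70 ± 0.04 from 1 h. Opposite-strand exons overlap 12.5% of the PLK1 exon length. At 8 h PLK1 stood at 268 and 255 CPM, with a log2 fold change of 0.07 that turned to -0.36 without scaling factors. PLK2 and PLK5 were not analysed here. Of 16 measured PP2C-type phosphatase genes related to PPM1D, 2 rose and 9 fell at 1 h, 8 rose and 6 fell at 4 h, and 7 rose and 6 fell at 8 h, beside 24.9% and 29.4%, 42% and 45.9%, and 41.3% and 48.1% of all genes. The mitochondrial phosphatase gene PPTC7 changed by -0.31, 1.23 and 2.60, reaching 384 CPM at 8 h, PPM1A by -0.25, 0.57 and 1.34 and the pyruvate dehydrogenase phosphatase gene PDP1 by -0.59, 1.00 and 1.78. PDP2, which encodes the other such phosphatase, was lower throughout at -1.15, -1.75 and -1.04, as was PHLPP2, a phosphatase of AKT, at -0.68, -1.14 and -1.17.

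GADD45B, the paralogue of GADD45A, was at 6.01 against 6.26 CPM at 1 h and 7.10 against 8.14 CPM at 4 h, neither called. It fell by 0.28 ± 0.13 at 8 h (edgeR adjusted p = 0.048), where its libraries overlapped, while GADD45A was 3.28-fold higher. The difference between these genes was not tested. GADD45GIP1, which encodes a GADD45-binding protein and is uncertain, with 29.4% of its exon length overlapped on the opposite strand, rose by 0.20 and 0.59 at 1 and 4 h. Its 8 h value was 0.18, and -0.25 without scaling factors. Among relatives of ZMAT3 at 8 h, ZMAT2 rose by 0.48 ± 0.05 and ZMAT1 by 0.48 ± 0.18 with TMM factors, but without factors both stood at 0.05 and neither was called (edgeR adjusted p = 0.38 and 0.80), whereas ZMAT5 fell by 1.43 ± 0.11 and ZNF346, a related RNA-binding zinc finger, by 1.68 ± 0.08.

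Genes whose products bind, or are acted on by, the 4 proteins were also counted. Of 14 measured partners and substrates 1 rose and 7 fell at 1 h, 2 rose and 11 fell at 4 h, and 4 rose and 9 fell at 8 h, and nothing particular to them is read from these counts beside the 29.4%, 45.9% and 48.1% of all genes called lower. At 1 h the cell-cycle phosphatase gene CDC25A fell by 1.19 ± 0.04 and the CDK1-inhibiting kinase gene WEE1 by 0.96 ± 0.05. CDC25C, a reported PLK3 substrate, fell from 20.9 to 6.55 CPM at 4 h and from 22.9 to 5.54 CPM at 8 h. The GADD45A-binding kinase gene CDK1 rose by 0.61 ± 0.04 at 8 h, and UNG, the uracil glycosylase dephosphorylated by PPM1D, fell by 1.03 ± 0.04. NLK, a kinase of the MAP kinase family, changed by -1.54 at 4 h.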

How the data were processed

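The members and gene lists were chosen with earlier results of these data known. The deposited count table holds whole-number read counts per Entrez gene, not normalized; per the submitters' processing notes the build was hg19 and edgeR was used, and reads were single-end of 50 bases per the labels' protocols. No source used here gives the aligner, strand setting or annotation. A second deposited table, named for RPKM, holds log2 values that the authors computed without gene length: once raised from the log2 scale, they rise linearly with the count in every library (largest gap 3.9e-07%). The intercepts of these straight lines ran from 1.10 to 1.16. Gene width comes from a deposited column and was used for RPKM alone.

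Counts were fitted with edgeR 4.0.16 in R 4.3.3 (TMM, filterByExpr, group means over 24 libraries, quasi-likelihood F tests, Benjamini-Hochberg over 9822 genes, threshold 0.05); the SE is the one implied by the F statistic. The fit was tested on simulated data. Log2 CPM used a prior count of 2. Named genes were the 4 members, MDM2, MDM4 and paralogues (by value or counts), per time up to 4 called targets each way and up to 2 of other lists (mean of at least 2 CPM, libraries not overlapping), and 3 like genes per member; some genes that this rule names are not reported here. RCHY1, ZNF385A and PCNA stand in 2 lists each. GENCODE release 29 (GRCh38) served to find shared 32-base words and opposite-strand exons; genes at 20% or more are called uncertain. For the 4 genes these shares were at most 4.3% and 2.2%. Alternatives were RLE, upper-quartile and no factors, DESeq2 1.42.0, limma-trend (3.58.1) on the deposited log2 values, filters, 2-group fits, a replicate block and leaving out each library.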

Additional observations from a re-analysis of the deposited data

Results flagged for a closer look

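In ZMAT3 the 4 h SK-3-91 library of replicate 4 stood apart from the other 3, at 87.0 CPM against 79.9 to 80.9 CPM. In GADD45A the 8 h DMSO library of replicate 3 stood apart, at 11.97 CPM against 9.51 to 9.62 CPM. These are 2 of 24 gene and group pairs, and chance alone flags about 1 in 20.

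The change against DMSO had opposite signs at different times in PPM1D, which was lower in all 4 treated libraries at 1 h and higher in all 4 at 4 and 8 h. Its log2 fold change was larger by 2.65 at 4 h and by 3.68 at 8 h than at 1 h. GADD45A showed the same signs, with differences of 0.93 at 4 h and 2.25 at 8 h. These differences between times were not tested, because the genes were chosen with them in view.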

How the results depend on the processing

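No member changed direction against DMSO under any of the 9 alternatives or the 24 fits that left out a library. With limma-trend on the deposited log2 values GADD45A went to -0.26, 0.06 and 0.80 at 1, 4 and 8 h. PLK3 went to -0.64 at 1 h and -0.73 at 4 h in that fit. There PPM1D stood at -1.26, 0.72 and 1.55 and ZMAT3 at -0.06, 1.33 and 2.57. The deposited log2 values include an intercept of 1.10 to 1.16, and its part in these values was not tested. Without scaling factors PLK3 went to -0.70 at 8 h, and the cause was not tested. In DMSO, changes that were not called turned sign for GADD45A from 4 to 8 h (-0.003 without factors) and for PPM1D from 1 to 4 h (0.02 at most with a library left out). The fall of ZMAT3 in DMSO from 1 to 4 h ranged from -1.06 to -0.77 and stayed past the threshold. The PLK3 change in DMSO from 4 to 8 h passed with RLE factors (-0.24, adjusted p = 0.048), no factors (-0.26, 0.034), the filter of at least 10 counts (-0.24, 0.046) and limma-trend (-0.16, 0.026), and without DMSO 4 h replicate 2, 8 h replicate 1 or 8 h replicate 4 (adjusted p from 0.020 to 0.037). Other p53 targets called higher numbered 16 at 4 h and 19 at 8 h without scaling factors, and 16 and 18 with limma-trend; the other counts stayed within 1.5 times. Replicate numbers did not pair treated with DMSO libraries: same-numbered ones had residual correlations from -0.12 to 0.02. At each time 0 of 4 correlated best with their own number. Between DMSO groups the correlations ran from -0.11 to 0.28. There 2 of 4 libraries from 1 to 4 h and 3 of 4 from 4 to 8 h correlated best with their own number. Whether the numbers mark a shared culture was not tested. The replicate block gave 3438 called genes in DMSO from 1 to 4 h against 3450, 2979 against 3019 from 4 to 8 h, and changed no call of a member there. Few counts limit PLK3 and GADD45A, with 55 and 98 in the lowest library.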
